A study of Mus musculus with 28 samples.

Results

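The platelet-derived growth factor (PDGF) receptors Pdgfra and Pdgfrb and the PDGF ligands Pdgfa, Pdgfb, Pdgfc and Pdgfd were followed through RNA sequencing of O9-1 cells, a mouse line of cranial neural crest cells. These 6 genes were taken by symbol from a count table of 54429 genes, and all 6 had reads in all 28 libraries. Cells were held at 21% O2 (4 libraries per group) or 0.5% O2 (3 libraries per group), in 4 culture conditions at each oxygen level. Proliferating cells were grown in STO-conditioned DMEM with 15% fetal calf serum (FCS), 25 ng/ml bFGF and 5 ng/ml LIF. Chondrocyte cultures had 3 days in osteoblast medium and then 7 days as micromass on matrigel with 5% FCS, 50 ng/ml BMP-2, 10 ng/ml TGF-beta3 and 0.1 µM dexamethasone. Osteoblast cultures had 10 days in 10% FCS with 100 ng/ml BMP-2, 0.1 µM dexamethasone and beta-glycerophosphate. Smooth muscle cultures had 3 days in DMEM with 10% FCS. Every group came from the same cell line, and bFGF and LIF were named for the proliferating medium and not for the others, so each differentiated group differed from its proliferating group in medium too. The design asked how oxygen affects the capacity of these cells to differentiate. Nothing in the labels says that the libraries of a group came from separate cultures, so the p-values measure the spread between libraries, which may be technical.

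PDGFs are disulphide-linked dimers that bring together pairs of receptor tyrosine kinases. PDGFRA binds the A, B and C ligands, and PDGFRB binds the B and D ligands. The A and B chains are cleaved by furin-like proteases inside the cell, whereas the C and D chains are secreted with a CUB domain that has to be removed outside the cell, by tissue plasminogen activator in the case of C and by urokinase in the case of D. In the head, Pdgfra is carried by neural crest mesenchyme and is needed for closure of the midface and the palate, and Pdgfrb is best known from pericytes and vascular smooth muscle.

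On the mouse build GRCm38, Pdgfra lies on chromosome 5 (75152292 to 75198215, plus strand), Pdgfa on chromosome 5 (138976014 to 138997370, minus strand), Pdgfb on chromosome 15 (79995874 to 80014977, minus strand), Pdgfc on chromosome 3 (81036416 to 81214040, plus strand) and Pdgfd on chromosome 9 (6168584 to 6378850, plus strand). All 6 members are annotated as protein-coding genes. The RefSeq promoter table (GRCm38.p6) matched 4 of the 6 members, namely Pdgfra, Pdgfa, Pdgfc and Pdgfd. The 250 bases before the RefSeq start are printed for the 3 members whose levels moved most between the oxygen levels in osteoblast cultures, Pdgfra and Pdgfd downwards and Pdgfc upwards. They are 5′ to 3′ on the gene's own strand, and capitals mark a match to a searched motif.
Pdgfra, chr5:75152001-75152250, plus strand: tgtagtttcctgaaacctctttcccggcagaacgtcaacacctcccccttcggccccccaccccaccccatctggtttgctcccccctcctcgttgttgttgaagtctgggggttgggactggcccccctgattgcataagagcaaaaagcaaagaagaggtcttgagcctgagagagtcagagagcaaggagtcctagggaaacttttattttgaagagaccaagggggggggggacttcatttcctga
Pdgfd, chr9:6168236-6168485, plus strand: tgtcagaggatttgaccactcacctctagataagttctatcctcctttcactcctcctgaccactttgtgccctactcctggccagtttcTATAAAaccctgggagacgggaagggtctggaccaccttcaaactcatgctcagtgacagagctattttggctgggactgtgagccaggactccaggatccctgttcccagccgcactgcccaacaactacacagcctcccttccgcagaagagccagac
Pdgfc, chr3:81036166-81036415, plus strand: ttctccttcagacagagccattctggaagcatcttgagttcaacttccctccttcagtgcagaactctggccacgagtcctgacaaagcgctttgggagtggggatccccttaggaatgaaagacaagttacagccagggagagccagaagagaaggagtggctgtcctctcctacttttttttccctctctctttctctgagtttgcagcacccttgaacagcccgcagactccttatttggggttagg
The motifs searched on both strands were ACGTG, the core of the hypoxia response element, GGGCGG, the GC box bound by Sp factors, CCAAT, the box bound by NF-Y, and TATAAA, the TATA box. No motif contains another. Pdgfd held 1 TATAAA, starting 160 bases before the start, and the Pdgfra and Pdgfc windows held no match. ACGTG was found in none of the member windows, including both Pdgfa windows, and in 16.6% of the 32851 windows of the table. GGGCGG was present in 32.7% of windows, CCAAT in 33.8% and TATAAA in 12.4%. The GC content was 54.4% in the Pdgfra window, 53.6% in the Pdgfd window and 50.8% in the Pdgfc window, against a median of 52.4% over all windows. These matches describe the letters in the windows and say nothing of binding.

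Libraries held 19.87 M to 64.69 M counts (M, 1e+06 counts). Levels are given as CPM, counts per 1e+06 counts scaled by edgeR's TMM factors (a trimmed mean of log ratios between libraries). With this scaling the median log2 fold change of all genes tested lay between -0.12 and 0.07 in every comparison. Scaling by library size alone moved that median to -1.49 for smooth muscle cultures at 0.5% against 21% O2, to -1.35 for smooth muscle against proliferating cells at 0.5% O2, and to -0.35 for both chondrocyte comparisons with proliferating cells. In the smooth muscle cultures at 0.5% O2, mitochondrial ribosomal RNA took 11.6% to 13.3% of counts, against at most 0.0889% elsewhere, and the TMM factors were 0.505 to 0.533, against 0.901 to 1.29 elsewhere. Summed haematopoietic markers, carried by Cd68 with Adgre1, Itgam and Laptm5 at 0, were 33.0 to 36.5 CPM in this group and at most 5.41 CPM elsewhere, and their part in the results was not tested. Osteoblast replicate 4 at 21% O2 stood apart from its group (root mean square log2 distance 0.46, against 0.20 to 0.21 for the other 3), and proliferating replicate 4 at 21% O2 did so to a smaller degree (0.25 against 0.15 to 0.16). Of the labelled fates, the summed level of 5 smooth muscle markers was 3531 to 3991 CPM in smooth muscle cultures at 21% O2 and 94.8 to 119 CPM at 0.5% O2, below the 191 to 195 CPM of proliferating cells at 0.5% O2 and near the 94.1 to 103 CPM of those at 21% O2. Osteoblast cultures carried as much of these markers at 21% O2 (3561 to 5101 CPM) and 2159 to 2433 CPM at 0.5% O2, and chondrocyte cultures 2071 to 2524 and 1887 to 2260 CPM. The summed chondrocyte markers were 3084 to 9183 CPM in chondrocyte cultures at 21% O2 and 892 to 1353 CPM at 0.5% O2. Summed osteoblast markers were 5720 to 9427 CPM in osteoblast cultures at 21% O2 and 8771 to 11009 CPM at 0.5% O2. Chondrocyte cultures carried more of those osteoblast markers, 36039.5 to 44797 CPM at 21% O2 and 43327 to 50409.6 CPM at 0.5% O2. The neural crest markers Sox10 and Foxd3 were at 0 in proliferating cells at both oxygen levels, while the list of 6 summed to 2420 to 2622 CPM at 21% O2 and 2852 to 3090 CPM at 0.5% O2. In smooth muscle cultures this sum was 867 to 1068 CPM at 21% O2 and 2922 to 3657 CPM at 0.5% O2, and of the 4 genes tested 2 rose and 2 fell between oxygen levels. In the same comparison cell cycle markers rose in 5 of 5, with a median log2 fold change of 0.67. Of the markers tested, 4 of 4 chondrocyte, 2 of 3 osteoblast and 4 of 5 smooth muscle markers fell. Of all genes tested there, 35.4% rose and 40.2% fell. Marker lists were counted with TMM alone. With library size alone the median of all genes was -1.49 there, so the cell cycle rise may not hold under that scaling. The part of these markers in the results for smooth muscle cultures was not tested.

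**Figure D1:**
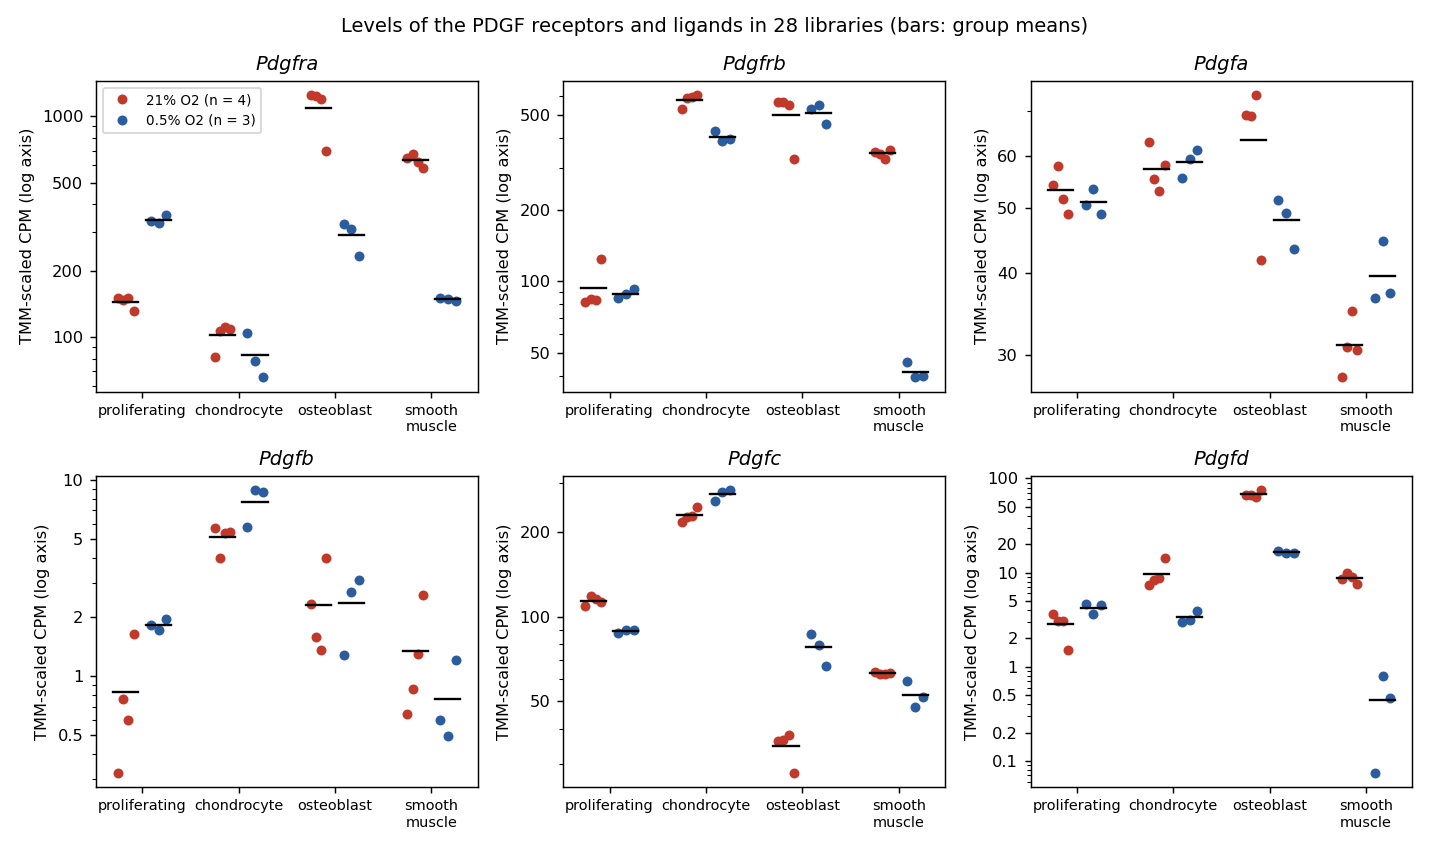
TMM-scaled CPM (log axes) of the 6 members in every library, by culture and oxygen level, with black bars at the group means. Pdgfra and Pdgfd are highest in osteoblast cultures at 21% O2 (means 1095 and 67.8 CPM), and Pdgfc and Pdgfb in chondrocyte cultures at 0.5% O2 (272 and 7.76 CPM).

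Pdgfra, the receptor for the A, B and C ligands, spanned 13.2-fold between group means, and its change on differentiation differed between the oxygen levels in all 3 lineages. In proliferating cells it stood at 151, 147, 150.5 and 132 CPM at 21% O2 and at 335, 329 and 359 CPM at 0.5% O2. All 3 low-oxygen libraries were above all 4 others, a log2 fold change of 1.29 ± 0.05 (SE, adjusted p = 2.1e-10). In osteoblast cultures it was 1247, 1239, 1197 and 695 CPM at 21% O2 and 325, 309 and 233 CPM at 0.5% O2, again without overlap but in the opposite order (-1.92 ± 0.22, adjusted p = 0.000123). The fourth normoxic value is that of the library that stood apart, and the call was kept without it. In smooth muscle cultures the levels were 649, 673, 623 and 586 CPM at 21% O2 and 150.1, 149.6 and 146 CPM at 0.5% O2 (-2.03 ± 0.08, adjusted p = 4.44e-12). In chondrocyte cultures the receptor was low at both oxygen levels, with 81.7, 106, 111 and 109 CPM at 21% O2 and 104, 78.3 and 65.8 CPM at 0.5% O2. These ranges overlapped and the difference was not called (-0.31 ± 0.16, adjusted p = 0.224), although it reached -0.50 with an adjusted p of 0.0211 without chondrocyte replicate 1 at 0.5% O2.

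Measured from the proliferating state, Pdgfra rose 7.83-fold in osteoblast cultures (log2 2.97 ± 0.18, adjusted p = 2.85e-07) and 4.53-fold in smooth muscle cultures (log2 2.18 ± 0.06, adjusted p = 6.29e-14) at 21% O2, and fell in chondrocyte cultures (-0.44 ± 0.09, adjusted p = 0.000712). At 0.5% O2 it fell in all 3, by 2.05 on the log2 scale in chondrocyte cultures (SE 0.16, adjusted p = 1.51e-05), by 1.08 in smooth muscle cultures (SE 0.07, adjusted p = 1.14e-07) and by 0.24 in osteoblast cultures (SE 0.10, adjusted p = 0.0468). Without TMM, Pdgfra fell further, by 2.36 in smooth muscle and 0.47 in osteoblast cultures at 0.5% O2 and by 0.79 in chondrocyte cultures at 21% O2, and its smooth muscle difference between oxygen levels was -3.40. The osteoblast call at 0.5% O2 was lost without any 1 of 5 of the 6 libraries. The values were -0.25, -0.26 and -0.20 without proliferating replicate 1, 2 or 3 (adjusted p 0.0833, 0.0695 and 0.155), and -0.28 and -0.10 without osteoblast replicate 2 or 3 (adjusted p 0.0549 and 0.136). Tested directly, the change at 0.5% O2 was lower than that at 21% O2 by 3.28 ± 0.09 on the log2 scale for smooth muscle (adjusted p = 6.31e-18), by 3.17 ± 0.24 for osteoblast (adjusted p = 1e-07) and by 1.58 ± 0.19 for chondrocyte cultures (adjusted p = 1.04e-05). The smooth muscle difference was -4.61 with library size alone. Part of each difference is the higher proliferating level at 0.5% O2, which all 3 tests share. In order of mean level, the groups ran from osteoblast (1095 ± 268 CPM, SD) and smooth muscle (633 ± 37.4) at 21% O2 through proliferating (341 ± 16.1) and osteoblast (289 ± 49.4) at 0.5% O2 to chondrocyte at 0.5% O2 (82.7 ± 19.6). The libraries of smooth muscle at 0.5% O2 (148 ± 2.48) and proliferating at 21% O2 (145 ± 9.06) overlapped, as did those of both chondrocyte groups, while the other neighbours in this order did not.

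Pdgfrb, the receptor for the B and D ligands, rose in all 3 lineages at 21% O2 and in chondrocyte and osteoblast cultures at 0.5% O2, but fell in smooth muscle cultures at 0.5% O2. In proliferating cells the levels were 81.8, 84.1, 83.5 and 124 CPM at 21% O2 and 84.9, 88.8 and 92.4 CPM at 0.5% O2. The high value is proliferating replicate 4. With all libraries the difference was -0.02 ± 0.16 (adjusted p = 0.932), and without that library it turned to 0.14 with an adjusted p of 0.00893, so this library decides the call. The direction also turned, to 0.01, without proliferating replicate 1 at 0.5% O2 (adjusted p = 0.963). Chondrocyte cultures had 530, 590.5, 593 and 606 CPM at 21% O2 and 429, 390.03 and 395 CPM at 0.5% O2, with no overlap (-0.53 ± 0.07, adjusted p = 0.000342). Osteoblast cultures had 564, 565, 549 and 327 CPM at 21% O2 and 527, 549 and 458 CPM at 0.5% O2. These groups overlapped, and the difference of 0.03 ± 0.18 (adjusted p = 0.909) became -0.13 (adjusted p = 0.112) without osteoblast replicate 4 at 21% O2 and -0.02 (adjusted p = 0.953) without osteoblast replicate 2 at 0.5% O2. Smooth muscle cultures had 351, 343, 328 and 357 CPM at 21% O2 and 45.5, 39.4 and 39.8 CPM at 0.5% O2, 7.92-fold lower at 0.5% O2 (log2 -2.99 ± 0.09, adjusted p = 1.83e-13). Without TMM this log2 fold change was -4.35.

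At 21% O2, Pdgfrb rose 6.53-fold in chondrocyte (log2 2.71 ± 0.14, adjusted p = 2.18e-08), 5.57-fold in osteoblast (2.48 ± 0.21, adjusted p = 2.95e-06) and 3.83-fold in smooth muscle cultures (1.94 ± 0.13, adjusted p = 2.09e-07). At 0.5% O2 the rise was 4.54-fold in chondrocyte (2.18 ± 0.06, adjusted p = 6.44e-12) and 5.75-fold in osteoblast cultures (2.52 ± 0.08, adjusted p = 3.71e-13), and in smooth muscle cultures the gene fell by 0.97 on the log2 scale (SE 0.10, adjusted p = 3.08e-06), or by 2.24 with library size alone. The oxygen levels differed in the smooth muscle change by -2.93 ± 0.16 (adjusted p = 2.26e-12, and by -4.26 with library size alone). For the osteoblast change the difference was 0.09 ± 0.25 (adjusted p = 0.799), and it was -0.08 without proliferating replicate 4 and -0.07 without osteoblast replicate 4 at 21% O2. For the chondrocyte change it was -0.50 ± 0.17 (adjusted p = 0.0256), a call lost when proliferating replicate 3 at 21% O2 (-0.45), proliferating replicate 2 or 3 at 0.5% O2 (-0.49 and -0.46), or chondrocyte replicate 2 or 3 at 0.5% O2 (-0.47 and -0.48) was left out, with adjusted p between 0.0507 and 0.0604. The highest mean levels, chondrocyte at 21% O2 (580 ± 34.0 CPM, SD), osteoblast at 0.5% O2 (511 ± 47.6), osteoblast at 21% O2 (501 ± 116) and chondrocyte at 0.5% O2 (405 ± 21.1), overlapped from each to the next. Summed pericyte markers, which do not include Pdgfrb, were 823 to 885 CPM in chondrocyte cultures at 21% O2 and 113 to 146 CPM in proliferating cells, with Kcnj8 and Abcc9 at 0 in both groups. They were 210.03 to 232 CPM in osteoblast and 93.3 to 134 CPM in smooth muscle cultures at 21% O2. Among the pericyte markers of these smooth muscle cultures, Notch3 rose (log2 3.98, adjusted p = 3.77e-07) and Cspg4 fell (-0.58, adjusted p = 0.00038). At 0.5% O2 they were 145 to 167 CPM in proliferating, 790 to 947 in chondrocyte, 419 to 500.2 in osteoblast and 67.7 to 113 in smooth muscle cultures. Their part in the changes of Pdgfrb was not tested. In bulk RNA, fewer cells of a type and less RNA per cell cannot be told apart, for the receptors or for the ligands.

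**Figure D2:**
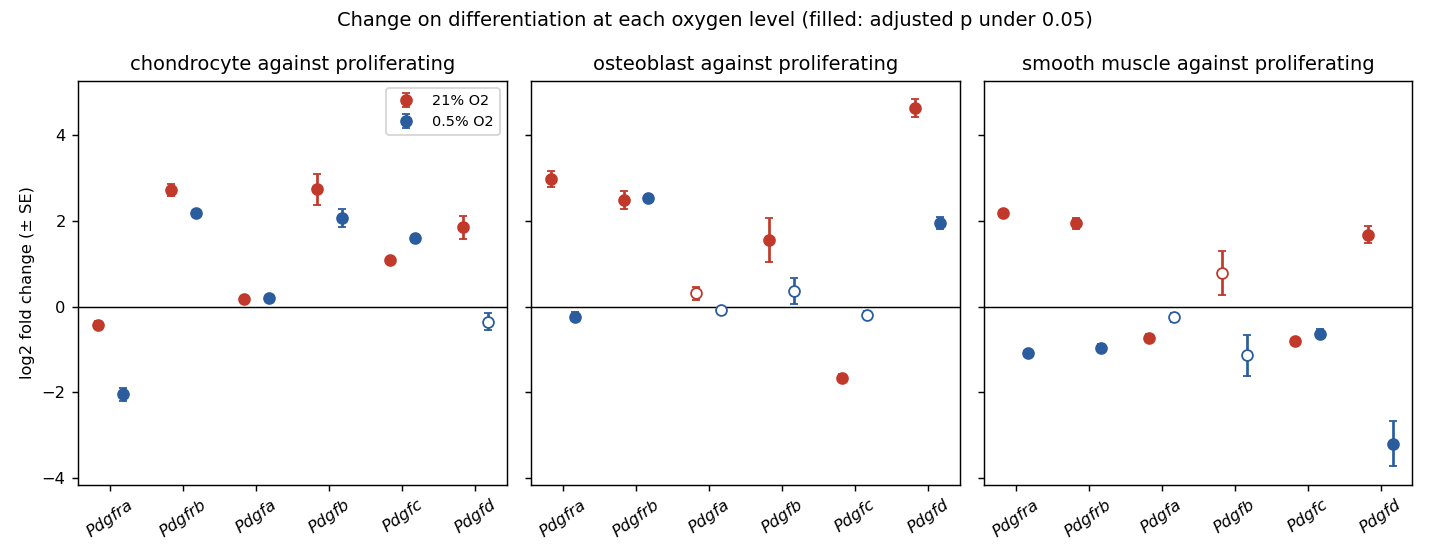
Log2 fold change (± SE) of each member from the proliferating state to each differentiated culture at 21% O2 and at 0.5% O2, with filled points for adjusted p under 0.05. Pdgfra, Pdgfrb and Pdgfd lie above 0 in smooth muscle cultures at 21% O2 (2.18, 1.94 and 1.67) and below 0 at 0.5% O2 (-1.08, -0.97 and -3.20).

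The ratio of both receptors within a library does not depend on the scaling. Expressed per exon base, so that the genes can be compared, Pdgfrb over Pdgfra was 0.99, 1.05, 1.02 and 1.72 in proliferating cells at 21% O2 and 0.46, 0.49 and 0.47 at 0.5% O2. Osteoblast cultures had 0.83, 0.83, 0.84 and 0.86 at 21% O2 and 2.97, 3.24 and 3.59 at 0.5% O2. Chondrocyte cultures had the largest ratios, 11.9, 10.2, 9.80 and 10.2 at 21% O2 and 7.53, 9.12 and 10.98 at 0.5% O2. Smooth muscle cultures had 0.99, 0.93, 0.96 and 1.12 at 21% O2 and 0.56, 0.48 and 0.50 at 0.5% O2. Thus chondrocyte cultures were rich in Pdgfrb at both oxygen levels, while osteoblast cultures had more Pdgfra at 21% O2 and more Pdgfrb at 0.5% O2. How far a ratio lies from 1 rests on the exon lengths taken, 10024 bases for Pdgfra and 5478 for Pdgfrb. In plain counts the osteoblast ratio was 0.45 to 0.47 at 21% O2 and 1.62 to 1.96 at 0.5% O2. The library that stood apart among the osteoblast cultures had a ratio of 0.86, next to the 0.83 to 0.84 of the others, although its level of either receptor was lower. On the log2 scale of the counts, the osteoblast groups differed by 1.95 between oxygen levels, the proliferating groups by -1.29, the smooth muscle groups by -0.96 and the chondrocyte groups by -0.20. Library values did not overlap in 7 of the 10 comparisons of this ratio. The exceptions were smooth muscle against proliferating cells at 21% and at 0.5% O2, and chondrocyte cultures between oxygen levels. With these numbers of libraries an exact two-sided permutation test cannot go below 0.0286 (4 against 4), 0.0571 (4 against 3) or 0.1 (3 against 3), and after adjustment over the 10 comparisons the smallest p it could give is 0.0816, so no difference in the ratio could be called by this test.

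**Figure D3:**
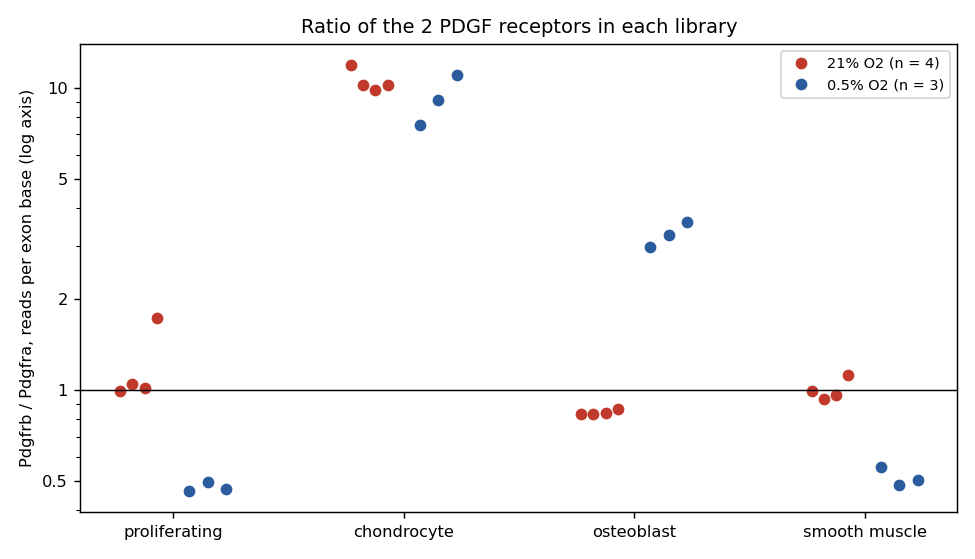
Pdgfrb over Pdgfra in each library, as reads per exon base on a log axis, with a line at a ratio of 1. Osteoblast libraries lie between 0.83 and 0.86 at 21% O2 and between 2.97 and 3.59 at 0.5% O2, and chondrocyte libraries between 7.53 and 11.9.

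Among the ligands, Pdgfc and Pdgfd, whose proteins carry the CUB domain, changed in different directions in osteoblast cultures. Pdgfc, a ligand of PDGFRA, was 109, 118, 115 and 113 CPM in proliferating cells at 21% O2 and 87.8, 90.1 and 89.5 CPM at 0.5% O2, slightly lower with no overlap (-0.30 ± 0.05, adjusted p = 5.59e-05). Osteoblast cultures had 36.2, 36.4, 38.0 and 27.9 CPM at 21% O2 and 86.8, 79.5 and 67.1 CPM at 0.5% O2. All low-oxygen osteoblast libraries were thus higher (log2 1.17 ± 0.13, adjusted p = 6.31e-05). Chondrocyte cultures had the highest levels, 218, 226, 229 and 246 CPM at 21% O2 and 258, 278 and 282 CPM at 0.5% O2. The difference of 0.24 ± 0.07 (adjusted p = 0.0225) was no longer called without chondrocyte replicate 2 or 3 at 21% O2 (0.24 and 0.23, adjusted p 0.0641 and 0.0673) or replicate 2 or 3 at 0.5% O2 (0.23 and 0.21, adjusted p 0.0775 and 0.105). Smooth muscle cultures had 63.9, 62.5, 62.5 and 62.9 CPM at 21% O2 and 59.0, 47.9 and 51.7 CPM at 0.5% O2. This difference of -0.19 ± 0.09 was not called (adjusted p = 0.0741), but was without smooth muscle replicate 1 at 0.5% O2 (-0.29, adjusted p = 0.00943). It was -1.55 (adjusted p = 1.78e-09) with library size alone, which also lost the chondrocyte call (0.17, adjusted p = 0.0989).

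From the proliferating state Pdgfc rose 2.12-fold in chondrocyte cultures at 21% O2 (log2 1.08 ± 0.05, adjusted p = 3.23e-09) and 3.04-fold at 0.5% O2 (1.60 ± 0.06, adjusted p = 6.93e-11). It fell in osteoblast cultures at 21% O2, by 1.67 on the log2 scale (SE 0.09, adjusted p = 1.39e-07), whereas at 0.5% O2 the value was -0.20 ± 0.09 (adjusted p = 0.0524, and -0.28 with an adjusted p of 0.00537 without osteoblast replicate 1). Scaled by library size alone, the latter was called at -0.43 (adjusted p = 0.000622). In smooth muscle cultures it fell at both oxygen levels, by 0.81 at 21% O2 (SE 0.05, adjusted p = 3.02e-10) and by 0.63 at 0.5% O2 (SE 0.10, adjusted p = 0.000112), or by 1.91 with library size alone. The oxygen levels differed in the osteoblast change (1.51 ± 0.14, adjusted p = 2.31e-07) and the chondrocyte change (0.55 ± 0.08, adjusted p = 1.9e-05). For the smooth muscle change the difference was 0.15 ± 0.10 (adjusted p = 0.164), it was called at 0.21 without smooth muscle replicate 2 at 0.5% O2 (adjusted p = 0.0457), and it turned to -1.18 with library size alone. In the order of TMM-scaled group means no neighbouring pair of Pdgfc groups overlapped, which held for no other member. With library size alone some neighbours did overlap, among them smooth muscle at 21% O2 (80.3 to 81.4 CPM) and osteoblast at 0.5% O2 (65.4 to 86.3 CPM).

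Pdgfd, a ligand of PDGFRB, had the widest range of group means of all members, from 67.8 CPM in osteoblast cultures at 21% O2 to 0.445 CPM in smooth muscle cultures at 0.5% O2 (74.4 and 0.227 CPM with library size alone). The fold between them depends on the scaling and on a lowest group of 14 counts. Osteoblast cultures at 21% O2 had 66.8, 66.5, 63.3 and 74.7 CPM, and those at 0.5% O2 had 16.96, 16.2 and 16.1 CPM. All 4 normoxic osteoblast libraries, including the one that stood apart, were above all low-oxygen ones (log2 -2.05 ± 0.09 for 0.5% against 21% O2, adjusted p = 4.18e-07). Proliferating cells had 3.63, 3.08, 3.08 and 1.51 CPM at 21% O2 and 4.65, 3.59 and 4.49 CPM at 0.5% O2. These ranges overlapped at 3.59 and 3.63 CPM, and the call (0.63 ± 0.24, adjusted p = 0.0322) was lost without proliferating replicate 2 at 21% O2 (0.66, adjusted p = 0.0516) or replicate 1 or 3 at 0.5% O2 (0.56 and 0.59, adjusted p 0.115 and 0.0992), and with library size alone (0.56, adjusted p = 0.0548). Chondrocyte cultures had 7.44, 8.25, 8.82 and 14.4 CPM at 21% O2 and 3.00, 3.11 and 3.91 CPM at 0.5% O2 (-1.54 ± 0.24, adjusted p = 0.00103). Smooth muscle cultures had 8.52, 9.91, 9.08 and 7.61 CPM at 21% O2, from 261 to 369 counts each. At 0.5% O2 they had 0.08, 0.80 and 0.46 CPM, from 1, 8 and 5 counts, so the size of the fall (-4.32 ± 0.40, adjusted p = 1.21e-07) rests on 14 counts in all, and it ran from -5.07 to -3.75 as each library was left out and was -5.68 with library size alone.

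Differentiation at 21% O2 raised Pdgfd in every lineage, 24.6-fold in osteoblast (log2 4.62 ± 0.21, adjusted p = 4.47e-08), 3.59-fold in chondrocyte (1.84 ± 0.27, adjusted p = 7.38e-05) and 3.19-fold in smooth muscle cultures (1.67 ± 0.20, adjusted p = 1.08e-06). At 0.5% O2 it rose in osteoblast cultures, 3.85-fold (1.95 ± 0.14, adjusted p = 4.19e-09), was not called in chondrocyte cultures (-0.35 ± 0.20, adjusted p = 0.132, but -0.68 with an adjusted p of 0.00816 with library size alone) and fell in smooth muscle cultures (-3.20 ± 0.53, adjusted p = 0.000208). The size of that fall ran from -2.63 without smooth muscle replicate 1 to -3.94 without replicate 2, and was -4.47 with library size alone. The change was lower at 0.5% than at 21% O2 in all 3 lineages when tested directly, by 2.16 ± 0.37 in chondrocyte (adjusted p = 0.00013), by 2.63 ± 0.26 in osteoblast (adjusted p = 5.78e-07) and by 4.92 ± 0.49 in smooth muscle cultures (adjusted p = 9.56e-09). These 3 calls held in every alternative that was run, but the smooth muscle value ran from -5.65 to -4.33 as each library was left out and was -6.24 with library size alone.

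**Figure D4:**
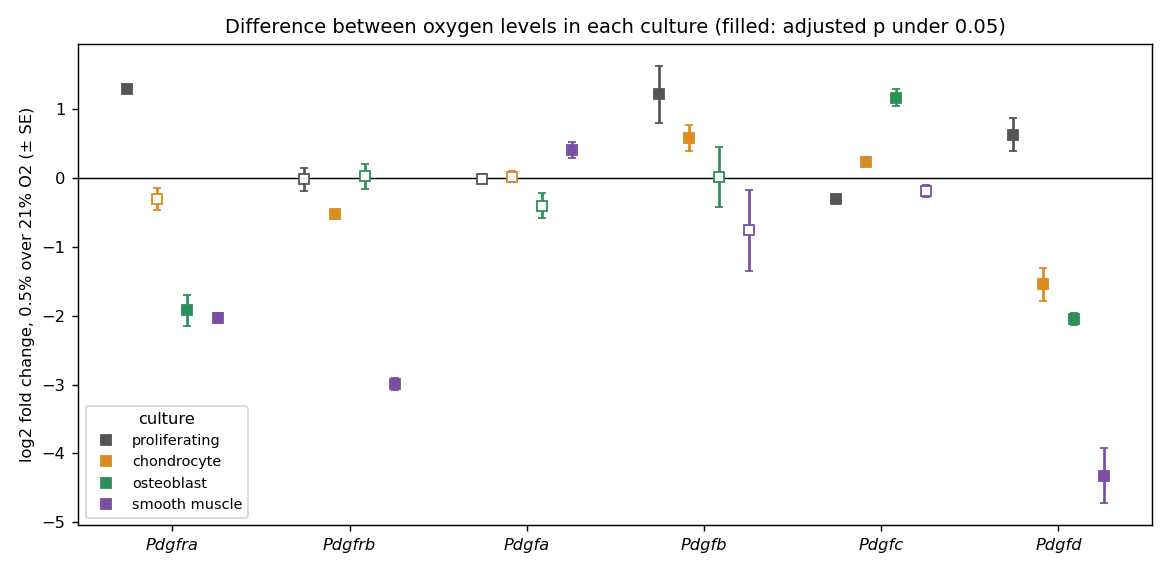
Log2 fold change (± SE) of 0.5% over 21% O2 for each member in each culture, with filled squares for adjusted p under 0.05. Pdgfra and Pdgfd lie above 0 in proliferating cells (1.29 and 0.63) and well below 0 in osteoblast (-1.92 and -2.05) and smooth muscle cultures (-2.03 and -4.32), and Pdgfc in osteoblast cultures lies above 0 (1.17).

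Pdgfa, a ligand of PDGFRA, varied least, with a 2.04-fold range of group means from 31.0 ± 2.97 CPM (SD, smooth muscle at 21% O2) to 63.4 ± 14.7 CPM (osteoblast at 21% O2). Without TMM the lowest mean was that of smooth muscle cultures at 0.5% O2, 20.4 CPM against 69.3 CPM in the osteoblast cultures. Smooth muscle cultures had 27.8, 30.9, 34.99 and 30.5 CPM at 21% O2 and 36.6, 44.6 and 37.2 CPM at 0.5% O2, with no overlap. From proliferating cells, at 54.3, 57.9, 51.6 and 49.0 CPM at 21% O2 and 50.7, 53.5 and 49.0 CPM at 0.5% O2, Pdgfa fell by 0.73 on the log2 scale in smooth muscle cultures at 21% O2 (SE 0.07, adjusted p = 2.16e-07), whereas the value at 0.5% O2 was -0.25 ± 0.11 (adjusted p = 0.0524, and -0.36 with an adjusted p of 0.00543 without smooth muscle replicate 2). Scaled by library size alone, the latter was -1.53 (adjusted p = 8.26e-08). The difference between oxygen levels within smooth muscle cultures, 0.41 ± 0.11 (adjusted p = 0.00485), turned to -0.96 (adjusted p = 1.59e-06) with library size alone, and that of the smooth muscle change, 0.45 ± 0.13 (adjusted p = 0.0041), to -0.89, so neither direction holds across scalings. The small rises in chondrocyte cultures (0.18 ± 0.07 at 21% O2, adjusted p = 0.0329, and 0.19 ± 0.07 at 0.5% O2, adjusted p = 0.026) also turned, to -0.16 and -0.14, with library size alone. Each lost its call without any 1 of 4 libraries. At 21% O2 these were proliferating replicate 1, 3 or 4 (0.19, 0.17 and 0.15) and chondrocyte replicate 1 (0.15), and at 0.5% O2 proliferating replicate 1 or 3 (0.19 and 0.16) and chondrocyte replicate 2 or 3 (0.19 and 0.17), with adjusted p between 0.0554 and 0.0918. In osteoblast cultures Pdgfa was 69.1, 68.8, 74.1 and 41.7 CPM at 21% O2 and 51.5, 49.2 and 43.4 CPM at 0.5% O2. Osteoblast replicate 4 at 21% O2 lay below the range of the low-oxygen libraries. With that library the main fits did not call the rise from proliferating cells at 21% O2 (0.31 ± 0.16, adjusted p = 0.0983). Nor did they call the difference between oxygen levels (-0.40 ± 0.18, adjusted p = 0.087) or that in the osteoblast change (-0.35 ± 0.20, adjusted p = 0.149). All were called without it (0.42, -0.56 and -0.50, adjusted p 1.57e-05, 3.53e-05 and 0.000242). With it kept, 1 fit of all 8 groups called the rise (0.25, adjusted p = 0.0492) and the difference between oxygen levels (-0.40, adjusted p = 0.00792). The remaining Pdgfa values were small, at -0.09 ± 0.09 for osteoblast against proliferating cells at 0.5% O2 (adjusted p = 0.355) and 0.02 ± 0.08 between oxygen levels in chondrocyte cultures (adjusted p = 0.869). Without TMM, the former was called at -0.32 (adjusted p = 0.0046), as was the osteoblast difference between oxygen levels with all libraries (-0.55, adjusted p = 0.0236).

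Pdgfb, the ligand shared by both receptors, was the least abundant ligand in 6 of the 8 groups and rested on 5 to 264 counts per library. It was highest in chondrocyte cultures, at 5.71, 4.00, 5.37 and 5.42 CPM at 21% O2 and 5.74, 8.86 and 8.68 CPM at 0.5% O2. Proliferating cells had 0.32, 0.77, 0.60 and 1.65 CPM at 21% O2 and 1.82, 1.72 and 1.95 CPM at 0.5% O2. The chondrocyte rise was 6.63-fold at 21% O2 (log2 2.73 ± 0.37, adjusted p = 3.28e-05) and 4.20-fold at 0.5% O2 (2.07 ± 0.21, adjusted p = 1.46e-06), and it was kept in every alternative that was run. Osteoblast cultures had 2.34, 1.58, 1.36 and 4.00 CPM at 21% O2 and 1.28, 2.68 and 3.10 CPM at 0.5% O2, and smooth muscle cultures 0.64, 0.86, 1.31 and 2.60 CPM and 0.60, 0.50 and 1.20 CPM. Between oxygen levels these groups overlapped and neither difference was called (0.02 ± 0.43, adjusted p = 0.977, and -0.75 ± 0.59, adjusted p = 0.256). The smooth muscle value was -2.11 (adjusted p = 0.00394) with library size alone, and ran from -1.24 without replicate 3 at 0.5% O2 to -0.24 without replicate 4 at 21% O2. The remaining calls on Pdgfb hung on single libraries. That in osteoblast cultures at 21% O2 (1.56 ± 0.51, adjusted p = 0.0176) was lost without proliferating replicate 3 (1.43, adjusted p = 0.0504). That between oxygen levels in proliferating cells (1.22 ± 0.41, adjusted p = 0.0189) was lost without replicate 3 at 21% O2 (1.11, adjusted p = 0.0502) or replicate 1 or 3 at 0.5% O2 (1.22 and 1.17, adjusted p 0.0522 and 0.0634). That between oxygen levels in chondrocyte cultures (0.59 ± 0.19, adjusted p = 0.0474) was lost without replicate 2, 3 or 4 at 21% O2 (0.49, 0.60 and 0.61) or replicate 2 or 3 at 0.5% O2 (0.48 and 0.49), with adjusted p between 0.0536 and 0.178, and also with library size alone (0.51, adjusted p = 0.083). The smooth muscle change differed between oxygen levels by -1.93 ± 0.75 (adjusted p = 0.0266, and -3.25 with library size alone), a call lost without smooth muscle replicate 4 at 21% O2 (-1.40, adjusted p = 0.0894) or replicate 1 or 2 at 0.5% O2 (-1.77 and -1.73, adjusted p 0.0608 and 0.062). Values that were not called became so without proliferating replicate 4 at 21% O2, the highest Pdgfb value of its group. These were the smooth muscle rise at 21% O2 (0.78 ± 0.51, adjusted p = 0.174, and 1.26 with 0.0172 without it), the difference in the chondrocyte change (-0.63 ± 0.45, adjusted p = 0.283, and -1.10 with 0.0163) and that in the osteoblast change (-1.16 ± 0.66, adjusted p = 0.151, and -1.67 with 0.0268). At 0.5% O2, the osteoblast value of 0.36 ± 0.31 (adjusted p = 0.31) became 0.66 (adjusted p = 0.033) without osteoblast replicate 1, and the smooth muscle value of -1.14 ± 0.48 (adjusted p = 0.0532) became -1.61 (adjusted p = 0.0136) without smooth muscle replicate 3 and -2.40 (adjusted p = 0.000664) with library size alone.

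To compare the ligands with each other, counts were divided by exon length (RPKM, scaled reads per kilobase of exon per 1e+06). The sum of the 4 ligands was highest in chondrocyte cultures, 67.9 ± 3.36 RPKM (SD) at 21% O2 and 75.3 ± 3.93 at 0.5% O2, and lowest in smooth muscle cultures, 25.4 ± 0.98 and 23.4 ± 0.78. In proliferating cells, Pdgfc made up 55.3% ± 1.71 of that sum at 21% O2 and 49.1% ± 0.77 at 0.5% O2, and Pdgfa 42.0% ± 1.45 and 45.9% ± 1.25. Chondrocyte cultures moved towards Pdgfc, with 66.5% ± 1.74 at 21% O2 and 71.1% ± 0.42 at 0.5% O2. In osteoblast cultures at 21% O2, Pdgfd took 44.1% ± 6.99, Pdgfa 40.9% ± 6.89 and Pdgfc 13.8% ± 0.81. The order of Pdgfd and Pdgfa there rests on osteoblast replicate 4, with 54.4% Pdgfd and 30.8% Pdgfa. In the other 3 libraries Pdgfa was the larger, with 43.4%, 43.6% and 46.0% against 41.5%, 41.6% and 38.9% for Pdgfd. At 0.5% O2 the osteoblast shares were 14.3% ± 0.98 for Pdgfd, 42.2% ± 0.17 for Pdgfa and 41.8% ± 1.72 for Pdgfc, and neither the Pdgfc nor the Pdgfd libraries overlapped between oxygen levels. Pdgfd made up 10.9% ± 1.12 of the sum in smooth muscle cultures at 21% O2 and 0.60% ± 0.48 at 0.5% O2. At 0.5% O2, Pdgfd and not Pdgfb had the lowest mean share in chondrocyte cultures (1.40% ± 0.16 against 2.46% ± 0.45, with no overlap) and in smooth muscle cultures (0.60% against 0.80%, with overlapping libraries). Pdgfb stayed at 0.50% to 2.46% in all 8 groups. Side by side, osteoblast cultures at 21% O2 had more Pdgfra than Pdgfrb and most of their ligand as Pdgfd and Pdgfa, and at 0.5% O2 more Pdgfrb than Pdgfra and most of their ligand as Pdgfa and Pdgfc.

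**Figure D5:**
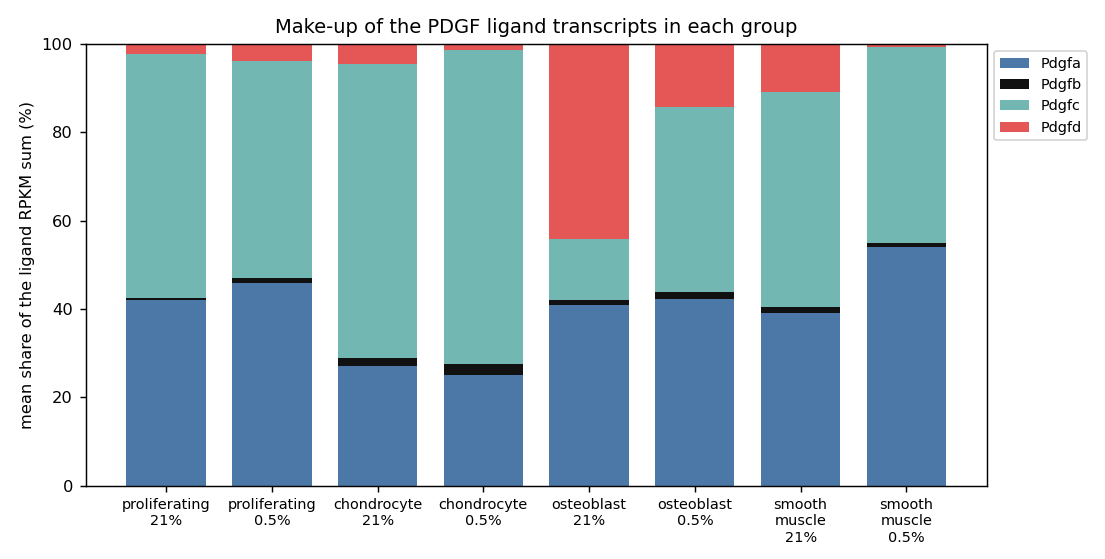
Mean share (%) of each ligand in the sum of the 4 ligand RPKM values, by culture and oxygen level (n = 4 libraries at 21% O2, n = 3 at 0.5% O2). Pdgfd takes 44.1% in osteoblast cultures at 21% O2 and 14.3% at 0.5% O2, where Pdgfc takes 41.8%.

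Counted over the members, differentiation at 21% O2 changed 6 of 6 in chondrocyte, 5 of 6 in osteoblast and 5 of 6 in smooth muscle cultures. The share of all genes called in the same comparisons was 74.9%, 78.7% and 79.7%, so these counts are near the background. All comparisons at 1 oxygen level share the same proliferating libraries, so they are not independent of each other. At 0.5% O2 the members called were 5 of 6 in chondrocyte (background 69.5%), 3 of 6 in osteoblast (71.3%) and 4 of 6 in smooth muscle cultures (70.0%). Between oxygen levels, 4 of 6 were called in proliferating cells (65.4%), 4 of 6 in chondrocyte (22.2%), 3 of 6 in osteoblast (54.3%) and 4 of 6 in smooth muscle cultures (75.6%). The difference in the change was called for 4 of 6 members in chondrocyte (43.5%), 3 of 6 in osteoblast (54.2%) and 5 of 6 in smooth muscle cultures (70.4%). The osteoblast count at 0.5% O2 became 5 without osteoblast replicate 1. The count between oxygen levels became 2 in proliferating cells without replicate 1 or 3 at 0.5% O2, and 2 in chondrocyte cultures without replicate 2 or 3 at either oxygen level, where the count over all genes also fell from 3157 to 2091 without replicate 3 at 0.5% O2. With library size alone, the share of called genes that were higher moved from 50.3% to 34.7% in chondrocyte cultures at 21% O2, and at 0.5% O2 from 50.2% to 31.8% in chondrocyte, 50.8% to 38.2% in osteoblast and 48.3% to 15.0% in smooth muscle cultures. Between oxygen levels it moved from 46.9% to 31.8% in chondrocyte, 49.6% to 36.9% in osteoblast and 46.8% to 15.6% in smooth muscle cultures, and from 49.6% to 16.6% for the difference in the smooth muscle change. By size between oxygen levels, the fall of Pdgfd exceeded the change of 96.0% of genes tested in chondrocyte, 94.0% in smooth muscle and 91.8% in osteoblast cultures. That of Pdgfra in osteoblast cultures exceeded 90.6%. At the other end, Pdgfrb and Pdgfb in osteoblast cultures exceeded 3.6% and 2.2%, and Pdgfa in proliferating cells 0.44%. In the authors' deposited tables, the log2 fold change had the sign found here for 60 of 60 members and comparisons, and differed by at most 0.23.

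Receptors related to the PDGF receptors (Kit, Csf1r, Flt3, Kdr, Flt1 and Flt4) were mostly too low to test, with at most 2 of 6 tested in any comparison. Csf1r, the receptor for colony-stimulating factor, rose in chondrocyte cultures at 21% O2 (1.48, adjusted p = 0.00978) and 0.5% O2 (2.98, adjusted p = 0.000187), from levels of 0.45 and 0.24 CPM. Flt1, a receptor for vascular endothelial growth factor (VEGF), fell in smooth muscle cultures at 21% O2 (-2.03, adjusted p = 8.76e-13) and at 0.5% O2 (-1.67, adjusted p = 6.58e-09). Their 8 ligands were tested in every comparison. Between oxygen levels, 6 rose and 1 fell in proliferating cells, 3 rose and 0 fell in chondrocyte, 5 rose and 0 fell in osteoblast, and 5 rose and 3 fell in smooth muscle cultures. Vegfa, the main angiogenic VEGF and a classical low-oxygen gene, rose by 2.26 in proliferating, 1.11 in chondrocyte, 2.88 in osteoblast and 3.17 in smooth muscle cultures on the log2 scale, and Pgf, placental growth factor, by 4.04, 1.28, 2.46 and 2.92. With library size alone, 3 ligands rose and 3 fell in smooth muscle cultures. Among the PDGF ligands there were 2 rises and 1 fall in proliferating, 2 and 1 in chondrocyte, 1 and 1 in osteoblast, and 1 and 1 in smooth muscle cultures. Of all genes tested, 33.1% rose and 32.3% fell in proliferating, 10.4% and 11.8% in chondrocyte, 27% and 27.3% in osteoblast, and 35.4% and 40.2% in smooth muscle cultures. Without TMM, the rises and falls of the PDGF ligands were 1 and 1, 0 and 1, 1 and 2, and 0 and 4 in the same order.

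Of 18 genes for adaptors and enzymes that act next to activated receptors, all tested in every comparison, 9 rose and 5 fell in chondrocyte, 7 and 5 in osteoblast, and 9 and 5 in smooth muscle cultures at 21% O2, with list medians of 0.10, 0.02 and 0.11 against medians of all genes of -0.003, 0.07 and 0.03. Of all genes tested, 37.7% rose and 37.2% fell in chondrocyte, 40.9% and 37.8% in osteoblast, and 40.8% and 38.9% in smooth muscle cultures at 21% O2. At 0.5% O2 these shares were 34.9% and 34.6%, 36.2% and 35.1%, and 33.8% and 36.2%. Gab1, a docking protein, rose by 1.5, 2.31 and 2.64, and Rasa1, a Ras GTPase-activating protein, fell (-1.85, -1.98 and -1.55). Pik3r1, a regulatory subunit of phosphoinositide 3-kinase, rose by 2.72 in osteoblast cultures at 21% O2 and by 3.61 at 0.5% O2, where 7 rose and 5 fell. At 0.5% O2, 7 rose and 5 fell in chondrocyte cultures and 2 rose and 11 fell in smooth muscle cultures (median -0.60, all genes -0.07). Between oxygen levels, 7 rose and 6 fell in proliferating cells, 2 and 2 changed in chondrocyte cultures and 2 and 3 in osteoblast cultures (all genes 33.1%, 10.4% and 27% higher, 32.3%, 11.8% and 27.3% lower). In smooth muscle cultures 1 rose and 15 fell (median -0.88, all genes -0.12), led by Gab1 (-2.41), Pik3r1 (-2.03), Nck2 (-1.45), an SH2 and SH3 adaptor, and Sos1 (-1.40), a Ras exchange factor. These counts depend on the scaling. With library size alone all 18 fell in smooth muscle cultures between oxygen levels, and 6 rose and 8 fell in proliferating, 1 and 3 in chondrocyte, and 0 and 4 in osteoblast cultures. Against proliferating cells, 4 then rose and 11 fell in chondrocyte cultures at either oxygen level. In osteoblast cultures 5 rose and 8 fell at 21% O2 and 3 rose and 9 fell at 0.5% O2, and in smooth muscle cultures all 18 fell at 0.5% O2.

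Genes that process or bind the ligands, or assist the receptors, had 10 members, of which 7 to 9 were tested. At 21% O2, 7 of 9 rose and 2 fell in chondrocyte, 6 of 8 rose and 1 fell in osteoblast, and 4 of 8 rose and 4 fell in smooth muscle cultures, where 37.7%, 40.9% and 40.8% of all genes rose and 37.2%, 37.8% and 38.9% fell. Sparc, a matrix protein that binds PDGF-B, rose by 4.04, 2.93 and 1.54, and Pcsk6, a furin-like protease, by 5.71, 5.41 and 4.26. Pcsk5, another such protease, had 0 counts in proliferating cells and 102 in all in chondrocyte cultures at 21% O2. Such a gene passes the filter only through the group where it is high, so its direction was fixed beforehand and adds nothing to the count of rises. At 0.5% O2, 6 of 8 rose and 2 fell in chondrocyte and in osteoblast cultures, and 1 of 7 rose and 6 fell in smooth muscle cultures. Of all genes, 34.9%, 36.2% and 33.8% rose there and 34.6%, 35.1% and 36.2% fell, in chondrocyte, osteoblast and smooth muscle cultures. Plat, which encodes tissue plasminogen activator, fell at 0.5% O2 in chondrocyte (-2.73), osteoblast (-3.30) and smooth muscle cultures (-1.66). Between oxygen levels, 6 of 8 rose and 2 fell in proliferating cells, 4 of 9 rose and 1 fell in chondrocyte cultures, 3 of 8 rose and 5 fell in osteoblast cultures, and 2 of 8 rose and 5 fell in smooth muscle cultures. In this order of cultures, 33.1%, 10.4%, 27% and 35.4% of all genes rose and 32.3%, 11.8%, 27.3% and 40.2% fell. In osteoblast cultures, Plau, which encodes urokinase, rose by 2.59 and Plat fell (-1.73), while Pdgfd, whose protein urokinase activates, fell and Pdgfc, whose protein tissue plasminogen activator activates, rose. Pcsk6 had 0 counts in smooth muscle cultures at 0.5% O2, against 1180 in all at 21% O2, so its direction in that comparison was likewise fixed by the filter. Scaled by library size alone, 0 of 8 rose and 7 fell in the smooth muscle comparison between oxygen levels, and 0 of 7 rose and 7 fell in that with proliferating cells at 0.5% O2.

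Of 9 genes that turn receptors off, 2 rose and 4 fell in chondrocyte, 1 rose and 6 fell in osteoblast, and 3 rose and 6 fell in smooth muscle cultures at 21% O2, beside the same shares of all genes (37.7%, 40.9% and 40.8% higher, 37.2%, 37.8% and 38.9% lower). Cblb, a ubiquitin ligase for activated receptor kinases, rose by 2.63, 2.34 and 2.07, and Lrig1, a membrane protein that lowers receptor kinase levels, fell (-2.36, -1.60 and -0.75). At 0.5% O2, 3 rose and 5 fell in chondrocyte, 2 and 5 in osteoblast, and 3 and 5 in smooth muscle cultures (all genes 34.9%, 36.2% and 33.8% higher, 34.6%, 35.1% and 36.2% lower). Between oxygen levels, 3 rose and 3 fell in proliferating cells, 1 and 3 in chondrocyte, 3 and 3 in osteoblast, and 3 and 4 in smooth muscle cultures (all genes 33.1%, 10.4%, 27% and 35.4% higher, 32.3%, 11.8%, 27.3% and 40.2% lower). Cblb rose at 0.5% O2 in proliferating (1.54) and osteoblast cultures (1.69). Scaled by library size alone, 0 rose and 8 fell in smooth muscle cultures between oxygen levels, and at 0.5% O2 0 rose and 7 fell against proliferating cells.

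Of 7 early response genes, which growth factors including PDGF induce within minutes to hours, 1 of 6 tested rose and 4 fell in chondrocyte and in osteoblast cultures at 21% O2, and 3 of 7 rose and 3 fell in smooth muscle cultures (all genes 37.7%, 40.9% and 40.8% higher, 37.2%, 37.8% and 38.9% lower). Fos, a subunit of the AP-1 factor, rose by 2.77, 3.52 and 2.79, and Myc, a growth regulator, fell (-1.97, -2.93 and -3.76). At 0.5% O2, 3 rose and 4 fell in chondrocyte, 3 rose and 2 fell in osteoblast, and 3 rose and 2 fell in smooth muscle cultures, all of 7. Of all genes, 34.9%, 36.2% and 33.8% rose in these comparisons and 34.6%, 35.1% and 36.2% fell. Between oxygen levels, 0 of 7 rose and 4 fell in proliferating cells, 1 of 5 rose and 1 fell in chondrocyte cultures, and 4 of 7 rose and 2 fell in smooth muscle cultures (all genes 33.1%, 10.4% and 35.4% higher, 32.3%, 11.8% and 40.2% lower). In osteoblast cultures 6 of 6 tested rose (all genes 27%), with a median of 1.84 against -0.03 for all genes, led by Fos (4.41), Cxcl1 (2.74), a chemokine, and Egr1 (2.15), a zinc finger factor. The difference in the osteoblast change was called upwards for 7 of 7, against 28.9% of all genes. The osteoblast cultures differed between oxygen levels in other lists as well. Cell cycle markers rose in 4 of 5 (median 2.19), with sums of 213 to 278 CPM at 0.5% O2 and 37.0 to 78.6 CPM at 21% O2. Smooth muscle markers fell in 3 of 5 (median -0.93). Of the adipocyte markers Fabp4, the 1 tested, rose by 2.48, with list sums of 20.01 to 23.1 CPM against 2.52 to 6.09 CPM and Adipoq and Lep at 0 in both groups. Osteoblast markers rose in 3 of 5 tested (median 2.69), low-oxygen response genes in 6 of 6 (median 3.76), Cd68, the haematopoietic marker tested, by 2.58, and 1 of 3 pericyte markers. Of 4 neural crest markers 1 rose and 1 fell. Their part in the early response and PDGF differences of these cultures was not tested. Without TMM, 5 of 6 rose in osteoblast cultures, and 2 rose and 3 fell in smooth muscle cultures. Against proliferating cells at 0.5% O2, 1 then rose and 4 fell in chondrocyte and 2 rose and 4 fell in smooth muscle cultures.

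The genes whose 8 group means were most like those of each member were found by Pearson correlation of log2(CPM + 1) among 10678 genes. These are descriptions over 8 group means from the same libraries, without a test. For Pdgfra they were Osbp2 (r = 0.9716) and Man1a (0.9707), for Pdgfrb Bcas3 (0.9901) and Hip1 (0.9847), and for Pdgfa Mthfd2 (0.9377) and Bmp2 (0.9085). For Pdgfb they were Irx3os (0.9886) and BX649560.1 (0.9817), for Pdgfc Sox11 (0.9744) and Inhba (0.9687), and for Pdgfd Snrk (0.9752) and Ak3 (0.9661). Without the smooth muscle group at 0.5% O2, Osbp2, Man1a, Mthfd2 and Irx3os stayed among the 2 most similar genes of their member and the other 8 did not. Among the members, the receptors were little alike (Pdgfra with Pdgfrb, r = 0.1875), while Pdgfra ran against Pdgfc (-0.8207), and Pdgfrb was closest to Pdgfd (0.7602), a ligand of its protein. Pdgfb was closest to Pdgfc (0.7197), both being highest in chondrocyte cultures.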

How the data were processed

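RNA of 28 libraries was sequenced as polyA RNA with a stranded kit, per the labels' protocols. The authors deposited raw counts per gene for 54429 genes. The submitters' processing notes name mm10, HISAT2 2.0.5, StringTie 1.3.3b and featureCounts 1.5.0-p3; their roles, the strand setting and the annotation release are not given in the sources used here. The authors' deposited tables of log2 fold changes were used for comparison of sign and size alone, and 70 other per-sample columns were not used.

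Counts were scaled with TMM and tested with edgeR 4.0.16 (quasi-likelihood, R 4.3.3), each pair of groups in its own fit and each difference of changes in a fit of 4 groups. Genes were kept by filterByExpr (minimum count 10, total 15), p-values were Benjamini-Hochberg adjusted over all genes tested, and genes were called at an adjusted p under 0.05. SE is the size of the log2 fold change divided by the root of F, an approximation. RPKM used the union of exons in GENCODE M21 (GRCm38). Depth of 19.87 M to 64.69 M counts leaves Pdgfb and Pdgfd, at down to 5 and 1 counts in a library, the least precise. The steps were tested on simulated data. The receptor ratio was tested by exact permutation. Alternatives were RLE factors, library size with and without mitochondrial genes, other filters, DESeq2 1.42.0, limma-voom 3.58.1, 1 fit of all groups, a replicate block and leaving out libraries. Text names the 6 members, at most 4 called genes of largest change per pathway list and comparison, and the 2 genes most similar to each member. Members and lists were chosen with earlier results of these data known. The values of 1 gene of a pathway list are not reported here.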

Additional observations from a re-analysis of the deposited data

Results flagged for a closer look

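In 6 of 28 sets of 4 libraries examined, 1 library lay far from the other 3, where chance alone gives about 1 in 20 for 1 set. The sets are not independent, as the same libraries recur among them and the receptor ratio is made from Pdgfra and Pdgfrb. The 6 therefore cannot be weighed against that rate. Osteoblast replicate 4 at 21% O2 had the lowest Pdgfra (694.6 CPM), Pdgfrb (327 CPM) and Pdgfa (41.7 CPM) of its group. Proliferating replicate 4 at 21% O2 had the highest Pdgfrb (124 CPM) and the highest log2 ratio of Pdgfrb to Pdgfra counts (-0.086). Chondrocyte replicate 1 at 21% O2 had the lowest Pdgfra (81.7 CPM).

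The change from the proliferating state differed between oxygen levels in 12 of 18 direct tests. Of all genes, 43.5% were called in this test for chondrocyte, 54.2% for osteoblast and 70.4% for smooth muscle cultures. Values called for members are given here as the change at 0.5% O2 minus that at 21% O2 on the log2 scale. For chondrocyte cultures these were Pdgfra (-1.58), Pdgfrb (-0.50), Pdgfc (0.55) and Pdgfd (-2.16). For osteoblast cultures they were Pdgfra (-3.17), Pdgfc (1.51) and Pdgfd (-2.63). For smooth muscle cultures they were Pdgfra (-3.28), Pdgfrb (-2.93), Pdgfa (0.45), Pdgfb (-1.93) and Pdgfd (-4.92). This Pdgfa value turned to -0.89 with library size alone. The calls on Pdgfb in smooth muscle and on Pdgfrb in chondrocyte cultures were lost when certain single libraries were left out.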

How the results depend on the processing

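Of the 78 member values, 55 were called, and 43 of these kept their direction and call in every alternative run. Library size alone and library size without mitochondrial genes turned Pdgfa in chondrocyte against proliferating cultures (-0.16 and -0.16 at 21% O2, -0.14 and -0.14 at 0.5% O2). Between oxygen levels they turned Pdgfa in chondrocyte (-0.052 and -0.054) and smooth muscle cultures (-0.96 and -0.76), and Pdgfrb (-0.12 and -0.13) and Pdgfb (-0.15 and -0.16) in osteoblast cultures. They turned the difference in the osteoblast change of Pdgfrb (-0.028 and -0.041) and in the smooth muscle change of Pdgfa (-0.89 and -0.69) and Pdgfc (-1.18 and -0.98). Under both, members called became 5 in osteoblast against proliferating cells at 0.5% O2 and 2 in chondrocyte cultures between oxygen levels. With library size alone, of 8 groups 5 kept their place in the order for Pdgfra, 4 for Pdgfrb, 2 for Pdgfa, 6 for Pdgfb, 4 for Pdgfc and 4 for Pdgfd. RLE factors and DESeq2 gave -0.0016 and -0.0010 for the Pdgfa difference in the chondrocyte change. With at least 10 counts in every library, Pdgfa between oxygen levels in proliferating cells was 0.012, and members called for the difference in the smooth muscle change were 3, as fewer were tested. limma-voom gave 0.018 for Pdgfrb between oxygen levels in proliferating cells. With 1 fit of all 8 groups, 5 calls of 78 values were lost and 4 gained, and 0 directions turned. Without both libraries that stood apart, an alternative chosen after seeing the data, Pdgfrb between oxygen levels was 0.14 in proliferating and -0.13 in osteoblast cultures, its difference in the osteoblast change was -0.24 (adjusted p = 0.0144), and members called there were 6.

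Same-numbered libraries did not deviate together (r from -0.16 to 0.11, all pairs over 0.1 in 0 comparisons), so numbers were not taken as pairs. With the replicate block, 7 of 78 values changed call or direction, among them Pdgfrb between oxygen levels in proliferating (0.16) and osteoblast cultures (-0.13). Only the normoxic groups have a replicate 4, so within a culture the block in effect leaves that library out of the comparison between oxygen levels. Leaving out replicate 4 gave 0.14 and -0.13 for these Pdgfrb values. The block therefore cannot tell an effect of pairing from the loss of that library there.

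Leaving out 1 library at a time moved members called from 2 to 5 in osteoblast against proliferating cells at 0.5% O2, and between oxygen levels from 2 to 5 in proliferating and from 2 to 5 in chondrocyte cultures, where genes called ran from 2091 to 3359. Between oxygen levels, Pdgfrb ran from -0.077 to 0.14 and Pdgfa from -0.054 to 0.028 in proliferating cells, Pdgfa from -0.016 to 0.076 in chondrocyte cultures, and Pdgfrb from -0.13 to 0.11 and Pdgfb from -0.23 to 0.42 in osteoblast cultures. The difference in the osteoblast change of Pdgfrb ran from -0.084 to 0.17. The cause of these changes was not tested. Depth limits Pdgfb and Pdgfd most, the latter with 14 counts in smooth muscle cultures at 0.5% O2.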

Other observations

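Pdgfrl, named for its likeness to the PDGF receptors and lacking their kinase, is no member and was chosen after its values were seen. It was at 0.13 to 0.39 CPM in proliferating cells at 21% O2 and 0.20 to 0.86 CPM at 0.5% O2. At 21% O2 it was 130.3 to 183 CPM in chondrocyte, 178 to 306 CPM in osteoblast and 100.2 to 106 CPM in smooth muscle cultures, log2 fold changes of 9.56, 9.98 and 8.92. At 0.5% O2 it was 68.0 to 111, 33.2 to 36.8 and 1.70 to 3.98 CPM, log2 fold changes of 7.19, 5.87 and 2.29. The change was lower at 0.5% O2 by 2.33 in chondrocyte, 4.06 in osteoblast and 6.60 in smooth muscle cultures.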
